A study of Ambystoma mexicanum with 6 samples.

Results

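The sites described here are stretches of accessible DNA that were listed in both libraries from systemically activated axolotl limbs and in no library from intact limbs or blastema. Peaks of all 6 deposited lists that overlapped by at least 1 bp were joined into 3529 sites. Of these, 625 (17.7%) had a peak in systemically activated 4 and systemically activated 5 and in none of the 4 other lists. The same arrangement was met by 12 sites (0.34%) for the intact pair of lists and by 0 sites (0%) for the blastema pair. The sites were chosen by the presence and absence of peaks in these lists, so these counts and the values below from the same lists are descriptions without a test. The systemically activated lists were also the longest, with 1389 and 2962 peaks against 248 to 483 in the other 4. The part of list length in the choice of these sites was not tested. With each list cut to its 248 strongest peaks, which keeps fewer peaks by construction, 14 sites met the rule. With only systemically activated 5 required the number was 2566, and with only systemically activated 4 required it was 1055. Neither the total of sites nor the counts for the intact and blastema pairs were taken under these changed settings. The numbers therefore stand without a share and without a comparison between groups.

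ATAC-seq marks open chromatin with the Tn5 transposase, which cuts DNA where nucleosomes leave it exposed, so that promoters, enhancers and other regulatory elements appear as peaks. In the axolotl (Ambystoma mexicanum), a salamander that regrows its limbs, loss of a limb also brings cells of uninjured tissue elsewhere in the body into the cell cycle, which is called systemic activation. The title of the study connects this response with adrenergic signalling, the pathway of adrenaline and noradrenaline. Cells sorted for a 4C DNA content have copied their genome and not yet divided, so the chromatin sampled here is that of cycling cells, along with any cells that stay at 4C.

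All 3 groups were wild type, with 2 libraries each and 10000 live sorted 4C cells per library. Intact libraries 1 and 2 came from limbs at homeostasis. Systemically activated libraries 4 and 5 came from limb tissue 14 days after amputation and carry the abbreviation CTL in their titles, which the labels do not spell out. Blastema libraries 1 and 2 came from the regenerating outgrowth with its wound epidermis, so they include epidermal cells, and the labels give no day for them. The labels name no cell type beyond the tissue, no age and no number of animals per library, and they do not say whether replicates came from separate animals. The genome build is not given in the sources used here. No gene was therefore assigned to any site, no sequence is shown, and the tissue labels could not be checked against marker genes. Read depth is unknown because the lists hold no read counts.

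Peaks at the 625 sites lay below the very strongest of their lists, around the middle of systemically activated 4 (median percentile of area 51.0) and above the middle of systemically activated 5 (66.8). Strength was taken as the authors' signal value, read as the area of a peak above its threshold, with a lowest value of 20.0 in both systemically activated lists. In systemically activated 4 the area at these sites ran from 20.0 to 436 with a median of 42.3, and in systemically activated 5 it ran from 20.1 to 386 with a median of 54.5. At the 155 sites present in all 6 lists the median area was 877 and 705 in the same lists. The 128 sites found in both systemically activated lists and in 1 to 3 of the others lay between, with medians of 62.6 and 112. Peaks found in a single list were weaker, with a median of 29.8 for the 410 sites of systemically activated 4 alone and 33.2 for the 1936 sites of systemically activated 5 alone. In both libraries the medians thus stood in the same order, rising with the number of lists in which a site was found.

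**Figure D1:**
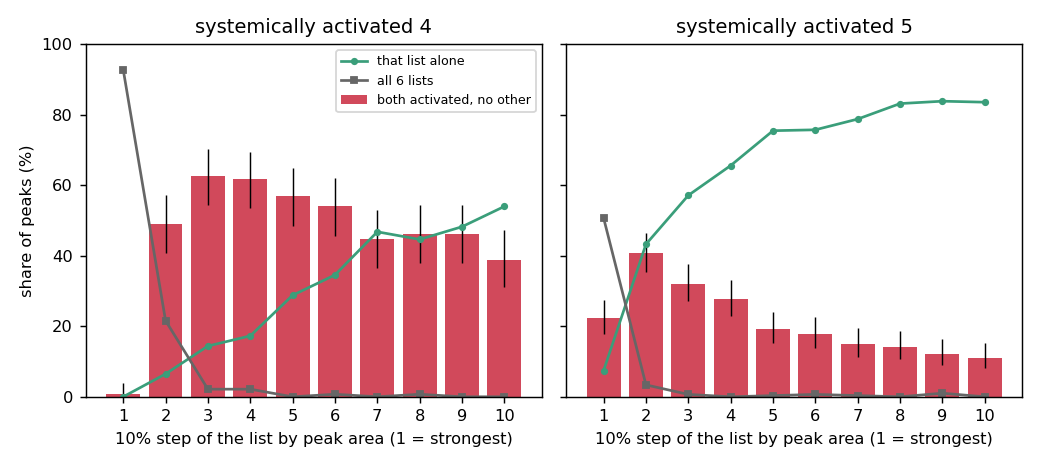
Share of peaks (%) in steps of 10% of each systemically activated list, ordered by peak area from the strongest. Red bars with Wilson 95% intervals are peaks at sites of both activated lists and no other, green points are peaks of that list alone and grey squares are peaks at sites of all 6 lists. In systemically activated 4 the red share is 0.725% in the strongest 10% and highest at 62.6% in the third step, and in systemically activated 5 it is highest in the second step at 40.9%.

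The place of these sites in each list was narrow at the top and broad below. The strongest 10% of systemically activated 4 held 1 peak of the 625 sites among 138 peaks (0.725%, Wilson 95% CI 0.128 to 3.99), while 92.8% of those 138 peaks lay at sites of all 6 lists. Of the peaks at ranks 278 to 416 of the same list, 62.6% (54.3 to 70.2) belonged to the 625 sites, and of those at ranks 1251 to 1389 the share was 38.8% (31.2 to 47.1). Peaks of systemically activated 4 alone made up 14.4% and 54.0% at these ranks. In systemically activated 5 the share of the 625 sites was 22.3% (17.9 to 27.4) at ranks 1 to 296, where 50.7% of peaks lay at sites of all 6 lists. It was 40.9% (35.4 to 46.6) at ranks 297 to 592, where peaks of that list alone made up 43.2%. The share of the 625 sites then fell in each further step to 11.1% (8.02 to 15.2) at ranks 2666 to 2962, where peaks of that list alone made up 83.5%. The intervals cover counting error only. In all, peaks of the 625 sites made up 46.1% of systemically activated 4 (640 peaks) and 21.2% of systemically activated 5 (629 peaks).

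Their summits were mostly low, as were those of the lists as a whole. The −log10 p that the authors gave for each summit took 103 distinct values in systemically activated 4 and 87 in systemically activated 5. In systemically activated 4 the sites had a median summit −log10 p of 7.28, the value at position 6 counted from the lowest, and 90.1% of them lay at the 10 lowest values, against 79.7% of all peaks in that list. In systemically activated 5 the median was 7.16, at position 7, and 82.2% lay at the 10 lowest values, close to the 84.3% of all peaks. The highest summit of the sites was at position 20 in systemically activated 4 and at position 21 in systemically activated 5. A summit −log10 q of at least 2 was reached by 191 of the sites (30.6%) in systemically activated 4, against 35.6% of all its peaks. In systemically activated 5 it was reached by 229 (36.6%), against 26.8% of all its peaks. Areas under 25, close to the lowest area listed, were found at 93 sites (14.9%) in systemically activated 4 and at 66 (10.6%) in systemically activated 5. Over all peaks of these lists the shares were 17.5% and 19.0%.

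A few sites were strong in both replicates. Sites were ordered by the lower of their percentiles of area in the systemically activated lists. Positions are given from 1 within the named segment of a chromosome arm, in the coordinates of the lists. The strongest was on arm 12q, segment 0, from 209877257 to 209878045, with an area of 436 in systemically activated 4 (rank 110) and 386 in systemically activated 5 (rank 120). It was also 7539 bp from the nearest site of all 6 lists, which makes it one of 10 sites within 10000 bp of such a site. Next came a site on arm 6q, segment 3, from 261690562 to 261691158, with areas of 247 and 142 in systemically activated 4 and 5. Sites on arm 12q, segment 1, followed, the stronger from 356617830 to 356618491 with areas of 223 and 174. The other, from 333672140 to 333673074, had areas of 209 and 203. These sites stood above the upper quartile of the 625 in both lists, which was 64.4 in systemically activated 4 and 90.0 in systemically activated 5. The remaining 6 of the strongest 10 lay on arms 4p, 12q, 1p, 5p, 7q and 3q, with areas of 179 to 205 in systemically activated 4 and 116 to 258 in systemically activated 5.

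Sites near the edge of the rule were taken by summit −log10 p on the inside, as those whose higher value of the 2 lists was lowest, and not by area. The site on arm 4p, segment 0, from 41271572 to 41271919 had areas of 20.9 in systemically activated 4 and 20.2 in systemically activated 5, with summit −log10 p of 6.64 and 6.41. A site on arm 13p from 219285850 to 219286080 had areas of 22.8 and 41.7, the latter above the middle of its list, and one on arm 3q, segment 0, from 308334337 to 308334631 had areas of 28.3 and 25.7. The sites on 13p and 3q shared their higher value of 6.78 with another site, on arm 4p, segment 2, from 292517478 to 292517792. Just outside were 81 sites present in both systemically activated lists and in exactly 1 other list. The list in question was intact 2 at 66 of them, intact 1 at 7, blastema 2 at 5 and blastema 1 at 3. These counts stood in the same order as the lengths of the lists, which held 483, 305, 258 and 248 peaks, but not in proportion to them. The 81 sites had median areas of 52.9 in systemically activated 4 and 82.5 in systemically activated 5, above the medians of the 625 sites. The strongest 5 of the 81 all had their further peak in intact 2, led by arm 5p, segment 0, from 24154859 to 24155219 with areas of 321 and 190. Intact 2 alone thus accounted for most of the 81 sites, and the part of list length in this was not tested.

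Peaks of the other groups rarely lay close to the 625 sites without touching them. A peak of an intact or blastema list was within 500 bp of 19 sites and within 1000 bp of 24 (3.84%), at a smallest distance of 43 bp. Taken list by list, a peak of intact 2 was within 1000 bp of 23 sites, of intact 1 of 9, of blastema 1 of 7 and of blastema 2 of 6. These counts overlap, since a site can have peaks of several lists near it. Peaks of the systemically activated lists outside the 625 sites were more often near, within 1000 bp of 138 sites (22.1%). Of these neighbours, sites of systemically activated 5 alone flanked 79 sites and sites of systemically activated 4 alone flanked 44. These lists also held more peaks that could lie near.

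**Figure D2:**
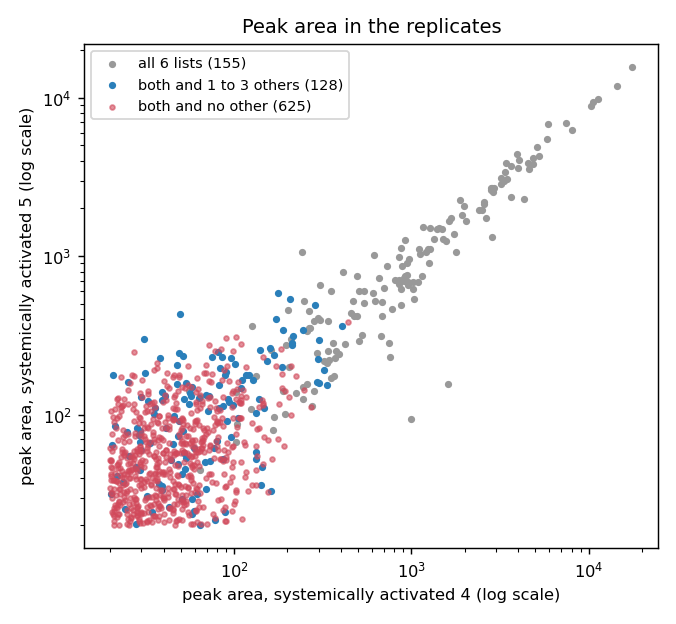
Peak area in systemically activated 4 (x axis) and systemically activated 5 (y axis), both on log scales, for sites of both lists and no other (red, 625), of both and 1 to 3 others (blue, 128) and of all 6 lists (grey, 155). The red cloud sits between 20.0 and 436 on the x axis with a Spearman's rho of 0.30, while the grey points follow a line with a rho of 0.92.

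The rankings of these sites in the replicates matched only in part. Spearman's rho of area between systemically activated 4 and 5 was 0.30 over the 625 sites, and Pearson's r of log10 area was 0.34. Over the 128 sites that 1 to 3 other lists also held, rho was 0.48. Over the 155 sites of all 6 lists it was 0.92, and their areas spanned a far wider range. Sites are not independent replicates and share their library, so these coefficients describe the lists and carry no p. Of the 157 sites in the top 25% by area in systemically activated 4, 68 (43.3%) were also in the top 25% in systemically activated 5, and 19 were in its lowest 25%. Taken within each class, the overlap of the top 25% was 18 of 32 for the sites that 1 to 3 other lists also held. For the sites of all 6 lists it was 36 of 39.

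The percentile differed by more than 50 points between the lists in 14 of the 128 sites of both systemically activated lists and 1 to 3 others. This was so in 0 of the 155 sites of all 6 lists and in 89 of the 625 sites. Among the 625, the site with the widest difference was on arm 10p, segment 0, from 100082618 to 100083417. It had an area of 20.1 in systemically activated 4 (rank 1377) and 106 in systemically activated 5 (rank 413). Its peak was 91 bp wide in the first list and 800 bp in the second. The 4 next sites by this measure, on arms 10q, 4q and 12q and on an unplaced scaffold, had areas of 20.7 to 22.1 in systemically activated 4 and 96.2 to 128 in systemically activated 5. All 5 were thus near the lowest area of one list and well inside the other. Percentiles depend on the length of a list, and 424 of the 625 sites had the higher one in the longer list, systemically activated 5. The same held for 100 of the 128 sites of both systemically activated lists and 1 to 3 others. It also held for 144 of the 155 sites of all 6 lists.

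The rule asked for an overlap of the replicates' peaks, so their closeness in position was in large part set by it and is given as a description. The summits of the replicates lay a median of 34 bp apart (quartiles 11 and 122), and in 361 sites (57.8%) they were at most 50 bp apart, against 67.7% of the sites of all 6 lists. In 335 sites (53.6%) the shorter peak lay wholly inside the longer, and in 610 the overlap was at least 50% of the shorter peak, where 1 bp sufficed for the rule. The shared length was a median of 61.0% of the length covered by either peak (quartiles 40.6 and 79.9), compared with 93.6% at the sites of all 6 lists. The peak was wider in systemically activated 5 in 469 of the 625 sites. Most sites, 606 of 625, were made of 1 peak from each list, while 15 held 2 peaks of systemically activated 4 and 4 held 2 peaks of systemically activated 5.

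**Figure D3:**
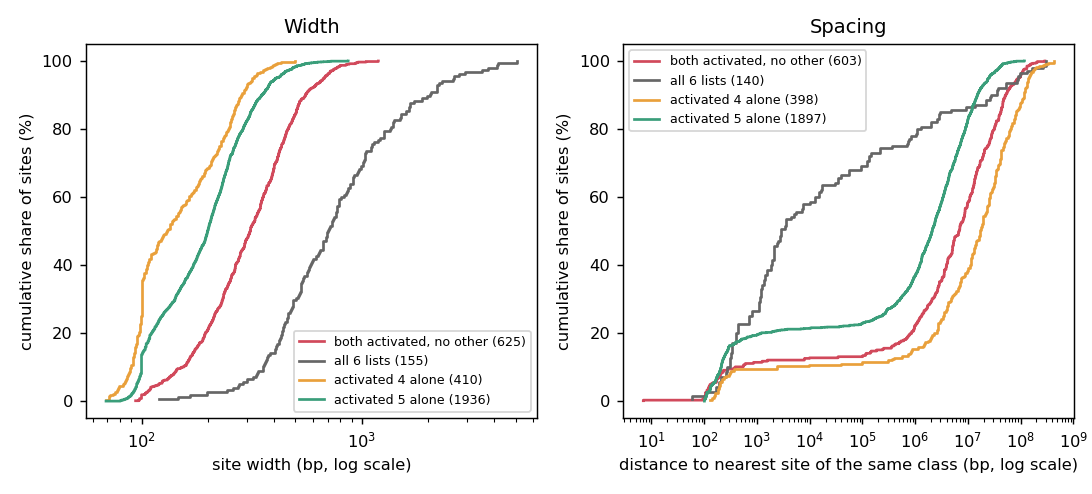
Cumulative share of sites (%) by width in bp (left) and by distance in bp to the nearest site of the same class on the same sequence (right), both on log scales, with the number of sites plotted in each legend. Sites of both activated lists and no other have a median width of 312 bp and a median spacing of 6.84 Mb. Sites of all 6 lists have a median width of 700 bp, and 62.6% of all 155 have a neighbour within 100 kb. That share counts sites with no neighbour on their sequence, which the right panel leaves out.

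The joined sites were 94 to 1191 bp wide with a median of 312 bp (quartiles 214 and 433). The median was 216 bp over all 3529 sites, 325.5 bp for the sites of both systemically activated lists and 1 to 3 others, and 700 bp for the sites of all 6 lists. Joining makes a site at least as wide as its widest peak, so the single peaks are given too. At the 625 sites they had a median width of 200 bp in systemically activated 4 and 274 bp in systemically activated 5. Peaks at the sites of 1 list alone were narrower, with a median of 130.5 bp in systemically activated 4 and 200 bp in systemically activated 5. A width of exactly 100 bp was the most common in both lists, at 86 and 127 peaks. It was found in 6.56% of the peaks at the 625 sites in systemically activated 4 and in 2.07% in systemically activated 5, against 8.78% and 5.68% of the peaks at sites of that list alone. A wider peak also has more bases with which to meet a peak of another list, and its part in this order was not tested. Of the 625 sites, 98 (15.7%) were wider than 500 bp and 130 (20.8%) were narrower than 200 bp. The widest, on arm 1p, segment 1, from 45610874 to 45612064, joined a peak of 434 bp and area 29.4 in systemically activated 4 with one of 1064 bp and area 136 in systemically activated 5. Their summits were 830 bp apart, the largest such distance among the 625 sites. The next widest, on arm 7q, segment 1, from 190849895 to 190850941, was strong in both, with areas of 184 and 258. It was followed by sites on arms 3q, 4q and 12q of 962, 948 and 935 bp.

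Most of the sites had no other of their kind within 100 kb. The nearest other such site on the same sequence was a median of 6.84 Mb away (quartiles 1.33 and 23.9 Mb, 603 sites with a neighbour). This distance depends on how many sites are kept, and it was 1.36 Mb with only systemically activated 5 required and 3.50 Mb with only systemically activated 4 required. Close neighbours made up a separate minority, with 69 sites (11.0%) in 34 groups joined by gaps of up to 1000 bp. Only 6 further gaps lay between 1000 and 100000 bp, whereas 497 of the 538 gaps between neighbours were longer than that. Within the close groups the gap was a median of 169 bp and the distance from centre to centre a median of 441.5 bp. In the systemically activated lists the smallest gap between peaks of one library was 102 bp and 101 bp, so shorter gaps between sites arise only across libraries. Counting sites of every class, 202 of the 625 (32.3%) had another site within 1000 bp. This share was 31.7% for the sites of systemically activated 4 alone and 26.5% for those of systemically activated 5 alone. It was 53.9% for the sites of both systemically activated lists and 1 to 3 others, and 45.2% for the sites of all 6 lists. Within their own class, 9.27% of the sites of systemically activated 4 alone and 19.1% of those of systemically activated 5 alone had a neighbour within 1000 bp. Their median distances to the nearest site of the same class were 17.3 and 2.11 Mb, against 6.84 Mb for the 625 sites. For the 128 sites of both systemically activated lists and 1 to 3 others this median was 3.25 Mb. The classes differ in number, and the part of this in their spacing was not tested. The sites of all 6 lists were more clustered, with 62.6% of them in groups joined by gaps of up to 100 kb and up to 11 sites in a group. The same measure gave 12.6% for the 625 sites and at most 3 sites in a group.

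There were 3 groups of 3 sites. On arm 12q, segment 1, the group began with the strong site at 333672140 (areas 209 and 203). A site followed from 333673936 to 333674452 with areas of 52.5 in systemically activated 4 and 58.3 in systemically activated 5, and another from 333684379 to 333684539 with areas of 43.7 and 40.4. On arm 2q, segment 0, the first site, from 40022300 to 40022670, had areas of 177 and 70.6, and the others, from 40030712 to 40030811 and from 40030934 to 40031374, had areas of 54.7 and 24.4 and of 54.4 and 86.4. In both groups a site of high area in systemically activated 4 stood beside weaker ones. On arm 3p, segment 0, the group was tighter and more even, with sites from 270842599 to 270842716, from 270842830 to 270842980 and from 270843128 to 270843264. Their areas were 40.6 to 62.6 in systemically activated 4 and 30.9 to 57.8 in systemically activated 5.

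Few of the sites were seen close to the sites present in all 6 lists. On a sequence with at least 1 site of all 6 lists there were 298 of the 625, and their median distance to it was 58.1 Mb (quartiles 20.0 and 130 Mb). The other 327 were on segments or scaffolds without one, and their distance was not determined. Some of these lay on arms that held such a site in another segment, and distances across segments were not taken. The median therefore covers only sequences that hold a site of all 6 lists. Only 7 sites were within 1000 bp of a site of all 6 lists, 10 within 10000 bp and 17 (2.72%) within 1000000 bp. For the sites of systemically activated 4 alone and systemically activated 5 alone the median distances were 71.4 and 72.8 Mb, and 2.20% and 1.39% were within 1000000 bp. Sites of both systemically activated lists and 1 to 3 others were nearer, with a median of 4.50 Mb and 24.2% within 1000000 bp. The 3 nearest of the 625 were narrow flanks. The nearest, on arm 3p, segment 1, from 259881527 to 259881660, was 98 bp from such a site and had areas of 101 in systemically activated 4 and 28.5 in systemically activated 5. Those on arm 12q, segment 0, from 206614251 to 206614381, and on arm 5p, segment 1, from 229178442 to 229178541, were 134 and 278 bp away, with areas of 81.1 and 28.8 and of 48.5 and 29.3. In systemically activated 4 the areas of all 3 were above the median of the 625 sites, and in systemically activated 5 all 3 were below it.

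**Figure D4:**
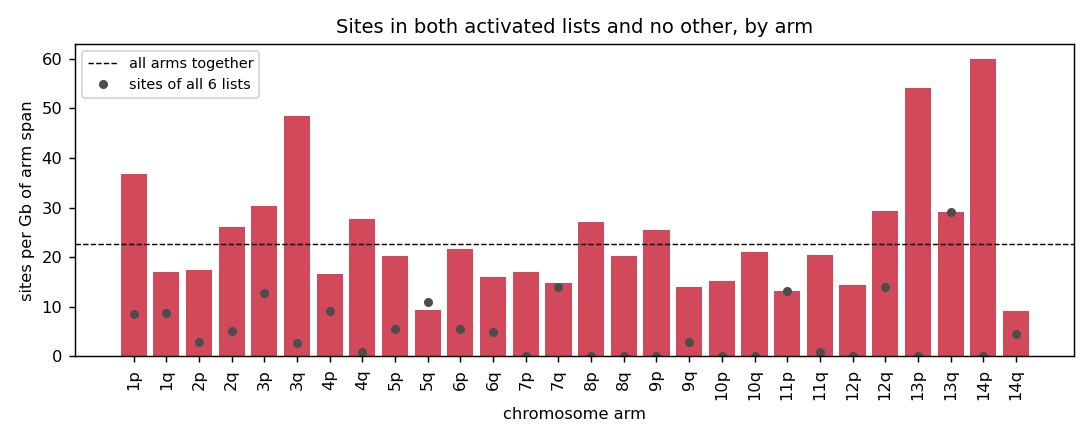
Number of sites of both activated lists and no other per Gb of arm span (red bars), for each of 28 chromosome arms, with their density over all arms (dashed line, 22.7 per Gb) and the density of sites of all 6 lists (grey points). Bars are tallest on 14p, 13p and 3q, and 9 arms have no site of all 6 lists.

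Every one of the 28 chromosome arms held such sites. There were 601 on arms and 24 on 22 unplaced scaffolds. The span of an arm was taken as the end of its last site in any list, which gives 26.4 Gb in all and a density of 22.7 of these sites per Gb. Arm 3q held the most, 74 sites (12.3% of those on arms, on 5.77% of the span), or 48.5 per Gb. Arm 1p followed with 52 sites (36.8 per Gb) and arm 2q with 36 (26.0 per Gb). The short arms 14p and 13p were denser, at 60.0 and 54.1 per Gb, but with only 9 and 13 sites. Arms 14q and 5q were the sparsest, with 4 sites (9.19 per Gb) and 12 sites (9.46 per Gb).

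The arms rich in these sites were mostly rich in other systemically activated sites too. Arm 3q held 11.5% of the sites of systemically activated 4 alone on arms and 10.4% of those of systemically activated 5 alone. Over the 28 arms, Spearman's rho between the density of the 625 sites and that of the single-list sites was 0.48 for systemically activated 4 and 0.53 for systemically activated 5, as a description of arms that share libraries and assembly. With the density of the sites of all 6 lists rho was −0.12. Arm 5q held 14 of the latter and 12 of the former, and 117 of the 625 sites lay on the 9 arms without any site of all 6 lists. As a share of all sites on an arm, against 17.7% over the whole series, they made up 21.8% on 3q, 18.1% on 1p, 33.3% on 10q (11 of 33 sites) and 8.16% on 14q (4 of 49).

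**Figure D5:**
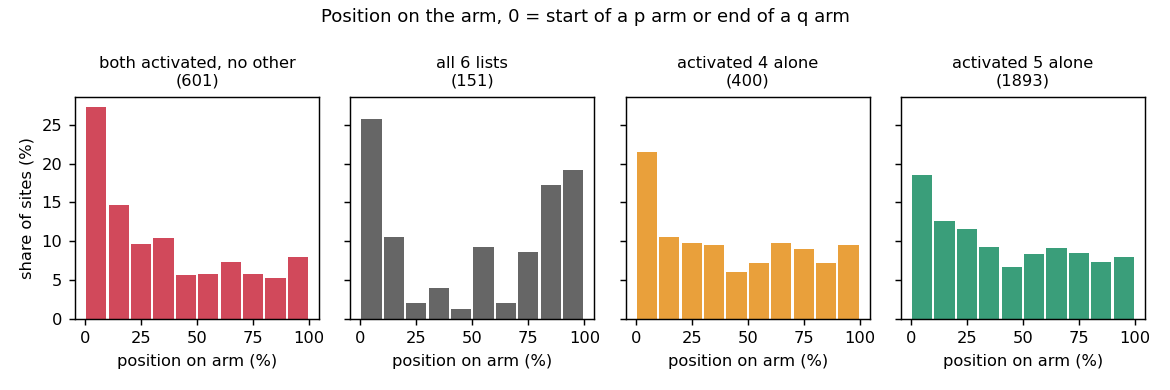
Share of sites (%) in each 10% of the arm, where 0 is the start of a p arm or the end of a q arm, for 4 classes of sites with their numbers above each panel. Of the 601 sites of both activated lists and no other, 27.3% are in the outermost 10%. The share is 25.8% for the sites of all 6 lists, 21.5% for activated 4 alone and 18.5% for activated 5 alone. In classes not plotted it is 43.7% for the sites of both activated lists and 1 to 3 others and 35.6% for intact 2 alone.

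Within arms the sites gathered toward one end. Positions on segments were placed on the arm by the segment starts in the sequence names. The outer end of an arm was taken as the start of a p arm and the end of a q arm, which are the chromosome ends if both arms are numbered in one direction. The outer 25% of the arms held 286 of the 601 sites (47.6%, Wilson 95% CI 43.6 to 51.6), and the remaining parts held 121, 99 and 95 going inward. This interval and those of the other classes below cover counting error only and treat sites as independent, which they are not. On p arms the outer 25% held 119 of 271 sites (43.9%) and on q arms 167 of 330 (50.6%). The share was above 25% on 24 of the 28 arms. It was 76.9% on 5p (20 of 26 sites) and 72.0% on 12q (18 of 25), but 9.09% on 9p (1 of 11) and 0% on 13p (0 of 13). The densest stretch was segment 3 of arm 3q, the last on that arm, with 38 sites on 380 Mb (100.1 per Gb), of which 16 lay in its last 40 Mb. Segment 0 of 1p had 31 sites (66.5 per Gb), segment 2 of 4q 21 (54.6 per Gb) and segment 0 of 5p 20 (47.1 per Gb). Segment 1 of 11q had 0 sites and segment 1 of 7p had 1. Of the 66 arm segments or undivided arms, 65 held at least 1 of the 625 sites.

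A concentration toward the outer end was also seen in lists and sites that the rule did not keep. The outer 25% held 38.5% (33.9 to 43.4) of the 400 sites of systemically activated 4 alone on arms and 37.9% (35.7 to 40.1) of the 1893 of systemically activated 5 alone. It held 62.7% (54.0 to 70.6) of the 126 sites of both systemically activated lists and 1 to 3 others, and 49.4% (39.2 to 59.7) of the 87 sites of intact 2 alone. Of the 18 sites of intact 1 alone on arms it held 7 (38.9%, 20.3 to 61.4), with 0 of 7 on p arms and 7 of 11 on q arms. The sites of all 6 lists split toward both ends, with 37.7% in the outer 25% and 43.7% in the inner 25%. No test of a difference between these classes was made, because sites are not replicates, so the concentration cannot be called particular to the systemically activated group. Without arm 3q the share for the 625 sites was 47.1%, and with sites within 1000 bp of each other counted once it was 47.7%.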

How the data were processed

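Each of 6 libraries had 1 deposited list of peaks with 10 columns and no header, so replicates were not pooled. Bowtie2 2.3.2 and Genrich 0.5 are named in the submitters' processing notes, without a role. Their settings, any shift for Tn5 cuts and the handling of duplicate reads are not given in the sources used here. The deposited score (column 5) equals column 7 divided by width times 1000, capped at 1000, in 100% of records and was not used. The deposited signal value (column 7) was read from its values as an area. The authors' −log10 p and −log10 q (columns 8 and 9) belong to the summit. Areas and −log10 values carry each library's own scale, so ranks were taken within a list and areas of different libraries stand side by side without a comparison of size. Where a site held 2 peaks of a list, the one of larger area was used.

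Joining, classes and distances were computed with Python 3.11.15, pandas 2.3.3 and numpy 2.4.6, and checked on simulated lists. Distances are bases between nearest edges on one sequence. Intervals are Wilson 95% intervals from scipy 1.17.1. No group test was made, since presence chose the sites and 2 libraries against 2 give no exact p under 0.333. Sites were named by rule: the 10 with the highest lower percentile, the 5 widest, the 3 nearest to a site of all 6 lists, the 5 with the largest difference of percentile, the 3 whose higher summit −log10 p was lowest, the 5 strongest just outside and the 3 largest groups within 100 kb. The rule by lowest summit had a tie with a further site. Members, rules and lists were chosen with earlier results of these data known.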

Additional observations from a re-analysis of the deposited data

How the results depend on the processing

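The share in the outer 25% of arms was chosen for these comparisons after seeing the data. The number of sites was 97 with a summit −log10 q of at least 2, 276 with the common −log10 p minimum of 7.13, 267 with the 1000 strongest peaks of each list and 14 with the 248 strongest. The cut at 1000 peaks shortened only the systemically activated lists, since the other lists held 248 to 483 peaks. Joining across gaps of up to 500 bp gave 603 and joining at 50% of the shorter peak 611. Leaving out a library gave 628 to 2566 sites, the highest without systemically activated 4, and 1055 without systemically activated 5, since the rule then asks for a peak in a single activated list. No total of sites was taken under these settings, so the counts stand without a share. The median width was 423, 374.5, 413 and 670 bp under the 4 stricter settings in that order, 413 bp with gaps of 500 bp and 174 to 312.5 bp with a library left out, the lowest without systemically activated 5. The median spacing was 28.1, 12.8, 12.4 and 11.5 Mb under the stricter settings and 8.81 Mb with gaps of 500 bp. With a library left out it was 1.36 to 6.79 Mb, the lowest without systemically activated 4, and 3.50 Mb without systemically activated 5. The median distance to a site of all lists was 40.5 Mb with the common minimum, 42.3 Mb with 1000 peaks, 32.4 Mb with 248 peaks and 56.6 to 69.8 Mb with a library left out. Spearman's rho of area was 0.43 with the −log10 q minimum and 0.39 with the common minimum, and stayed between 0.25 and 0.32 in the other 9 settings. The share in the outer 25% of arms was 53.7% with the −log10 q minimum, 52.1% with 1000 peaks, 64.3% with 248 peaks and 40.3% to 49.6% with a library left out. The cause of these shifts was not tested. A stricter setting keeps fewer peaks by construction, and the part of this in the shifts was not tested either. No paired analysis was possible because the results come from no test and the systemically activated replicate numbers, 4 and 5, do not occur in the other groups. The unknown read depth limits what absence from a list can show.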
